A study of Mus musculus with 6 samples.

Results

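Cerebellins are small secreted proteins with a C1q domain, and they were examined here together with the cell surface receptors that bind them in whole mouse testes at postnatal day 5. The group was set by a list of 7 gene symbols, Cbln1, Cbln2, Cbln3, Cbln4, Grid1, Nrxn2 and Nrxn3. Of these, 6 were read from the 57170 gene identifiers of the deposited table, namely 4 cerebellins and 2 receptors. Nrxn3 was not analysed here. A filter on low counts (edgeR's filterByExpr, minimum count 10) kept 17707 genes for testing, among them 5 of the genes listed, and Grid1 fell under it. The list was drawn up with the comparison of the genotypes already known, in which Cbln1 stood out. The genotype values of these genes are therefore a description and carry no p-value. Where a listed gene is said to pass a threshold or not, this describes a fit and is no test of the gene.

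The 4 sKO libraries (sKO-1 to sKO-4) came from testes of mice in which Mdm2, the ubiquitin ligase that holds p53 in check, was conditionally deleted in germ cells before meiosis. The 2 WT libraries (WT-1 and WT-2) came from wild-type testes of the same age. The Cre driver, the strain and the number of animals behind a library are not given in the labels used here, so any p-value below measures the spread between these libraries.

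In the brain, cerebellins are known as synapse organisers. A cerebellin binds a neurexin on the incoming axon and a delta glutamate receptor, such as GluD1 (gene Grid1), on the receiving cell, and so holds the contact together. In the mouse fetal gonad, Cbln4 is known as a target of the sex-determining factors SRY and SOX9, which act in Sertoli cells, the somatic nurse cells of the germ line.

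The coding sequences of the cerebellins are related but distinct, which bears on how reads could be told apart. They were compared in the GENCODE M21 transcripts (GRCm38), and the 90 coding bases most alike in Cbln1, Cbln3 and Cbln4 are shown to let the genes be compared letter by letter. Capitals mark the bases identical in all 3 genes, and each line runs 5′ to 3′ along the coding strand.
Cbln1: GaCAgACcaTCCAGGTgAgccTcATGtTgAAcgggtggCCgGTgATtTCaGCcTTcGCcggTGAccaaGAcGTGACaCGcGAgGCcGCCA
Cbln3: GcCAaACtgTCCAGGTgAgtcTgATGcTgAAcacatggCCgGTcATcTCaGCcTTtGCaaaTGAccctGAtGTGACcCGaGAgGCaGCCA
Cbln4: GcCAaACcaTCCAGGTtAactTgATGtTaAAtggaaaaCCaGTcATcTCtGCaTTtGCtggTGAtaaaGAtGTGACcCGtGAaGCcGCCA
The stretch begins at coding base 371 of Cbln1, 383 of Cbln3 and 386 of Cbln4, counted from the start codon. Even here 54 of the 90 bases (60%) were identical in all 3. Over the aligned coding sequence Cbln1 shared 69.2% of bases with Cbln4, 68.4% with Cbln3 and 73.7% with Cbln2. Shared runs were sought in the longest annotated transcript of each gene only. There the longest run of Cbln1 shared with another cerebellin was 21 bases, with Cbln3. The deposited values are expected counts, in which a read that matches several genes is divided among them. For Cbln1, Cbln2 and Cbln4 the expected counts were whole numbers in all 6 libraries, whereas those of Cbln3, Grid1 and Nrxn2 were not.

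Library totals lay between 17.99 and 18.4 M (mega) expected counts. Mdm2, the deleted gene, was at 37.6, 47.4, 41.9 and 45.1 CPM (counts put on one library total, with TMM normalisation) in sKO-1 to sKO-4, against 67.2 and 75.9 CPM in WT-1 and WT-2 (log2 fold change −0.74, SE 0.11, edgeR adjusted p = 0.0241), and all sKO values lay below both WT values. The adjusted p was above 0.05 without sKO-2 (0.0561), sKO-3 (0.0739), WT-1 (0.171) or WT-2 (0.111), and over all 17 alternatives it ran from 1.27e-04 to 0.171, while the log2 fold change without 1 library stayed at −0.82 to −0.67. Germ cell markers fell. Of 11 tested, 9 were lower and 0 higher by edgeR, against 2.3% lower and 0.124% higher among all genes tested, and all 11 were lower at an unadjusted p under 0.05, against 8.91% of all genes. Without WT-1 the edgeR count was 0, and without any other single library it was 7 to 9. Their summed level was 170 to 258 CPM in sKO against 619 to 832 CPM in WT. The 11 Sertoli cell markers summed to 6212 to 6923 CPM in sKO and 5370 to 6437 CPM in WT. By edgeR 1 was higher and 0 lower, and the 1 call was lost whichever library was left out. DESeq2 called 1 higher and 1 lower. At an unadjusted edgeR p under 0.05, 3 were higher and 1 lower, against 4.17% and 8.91% of all genes. The Sertoli markers thus did not all go 1 way, which their sum does not show. All 6 peritubular myoid markers had a log2 fold change below 0, with 1 lower by edgeR (0 to 1 without 1 library) and 3 lower at an unadjusted p. They summed to 500 to 665 CPM in sKO and 630 to 810 CPM in WT. All 7 Leydig cell markers had a log2 fold change above 0, with 0 called, and summed to 811 to 1233 CPM in sKO and 736 to 928 CPM in WT. In bulk RNA, fewer cells of a type and less RNA per cell cannot be told apart. The first principal component of these libraries (38.1% of the variance) separated sKO-1, sKO-2 and WT-1 from sKO-3, sKO-4 and WT-2. The labels name no batch.

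Cbln1 encodes the founding cerebellin, the ligand that joins neurexins to delta receptors at cerebellar synapses. It was at 324, 330, 305 and 317 CPM in sKO-1 to sKO-4, against 125 and 108 CPM in WT-1 and WT-2. The lowest sKO library thus stood well above the higher WT library, and the sKO libraries lay close together. The means were 319 ± 10.6 CPM in sKO (SD, n = 4) and 116 ± 11.9 CPM in WT (SD, n = 2). The log2 fold change was 1.46 (SE 0.10), a fold of 2.75. Of the 17707 genes tested, 72, Cbln1 among them, had a log2 fold change at least that large. The SD among sKO libraries was 3.32% of the mean for Cbln1, where counting alone would give 1.32%. Among the 22 genes higher in sKO by edgeR, Cbln1 ranked 3 by abundance and 7 by log2 fold change.

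**Figure D1:**
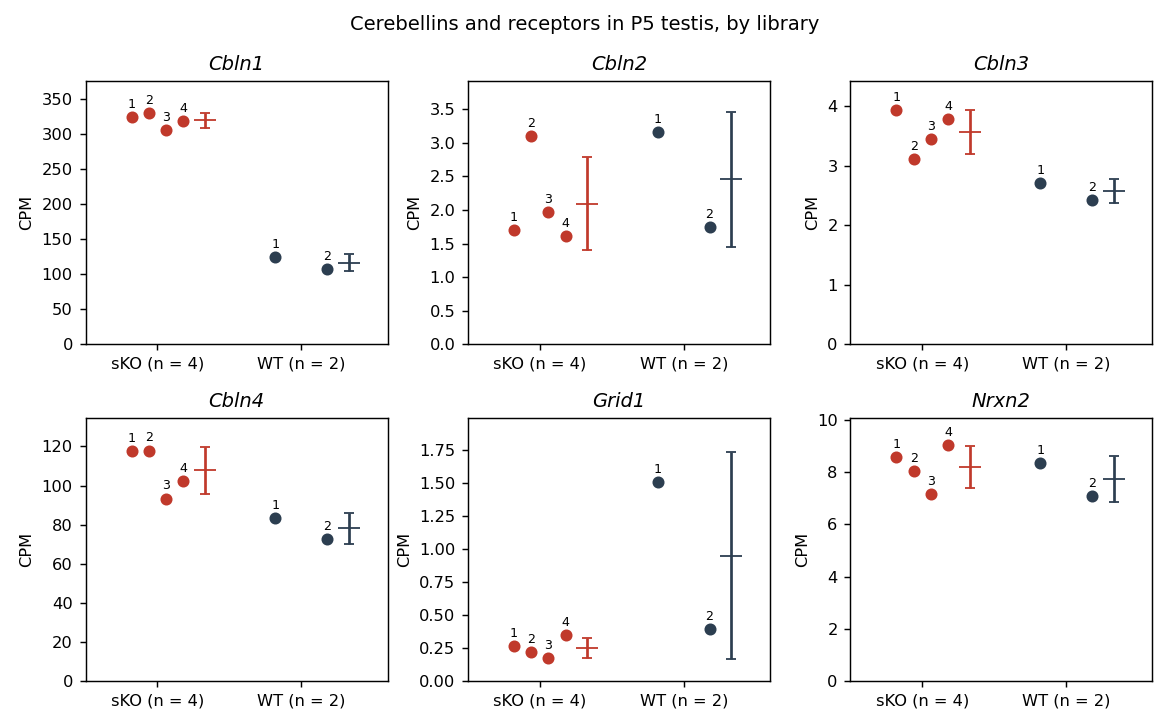
Level of each gene in CPM (y axis, from 0) in the sKO and WT libraries; points are libraries with their number, and the bar beside each group is the mean with SD. Cbln1 lies at 305 to 330 CPM in sKO and at 108 to 125 CPM in WT, while Cbln2 and Nrxn2 overlap between the groups and Grid1 is below 2 CPM throughout.

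Cbln4 binds neurexins and the netrin receptor DCC. It was at 118, 118, 93.3 and 102 CPM in sKO-1 to sKO-4, against 83.5 and 72.6 CPM in WT-1 and WT-2. Every sKO library lay above both WT libraries, but sKO-3 by under 10 CPM over WT-1. The means were 108 ± 12.2 CPM in sKO (SD, n = 4) and 78.05 ± 7.76 CPM in WT (SD, n = 2), with a log2 fold change of 0.47 (SE 0.13). Cbln4 did not pass the edgeR threshold (adjusted p under 0.05 over all genes tested). It did pass with DESeq2 and with a term for the library split named above, which was picked from these same libraries. As the list was chosen on this contrast, neither pass is a test of Cbln4.

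Cbln3, which in the mouse cerebellum is secreted only in complex with Cbln1, was a low transcript. Its level was 3.94, 3.11, 3.45 and 3.78 CPM in sKO-1 to sKO-4, against 2.72 and 2.43 CPM in WT-1 and WT-2. The groups did not overlap, and the log2 fold change of 0.48 (SE 0.24) did not pass the threshold. The sKO libraries differed by 10.4% of their mean (SD), where counting alone would give 12.5%.

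Cbln2, which like Cbln1 joins neurexins to delta receptors, was at 1.69, 3.11, 1.96 and 1.62 CPM in sKO-1 to sKO-4, against 3.17 and 1.75 CPM in WT-1 and WT-2. The groups overlapped, with sKO-2 and WT-1 high. Its log2 fold change of −0.23 (SE 0.39) did not pass the threshold, and without WT-1 it was 0.26.

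Of the 5 genes tested, 1 was called higher and 0 lower by edgeR, beside 0.124% called higher and 2.3% called lower among all genes tested. DESeq2 called Cbln1 and Cbln4, beside 81 genes higher and 648 lower of 32550. Limma-voom called Cbln1, beside 18 higher and 446 lower of 17707. In 3 of the 5, all sKO libraries lay above both WT libraries, beside 9.79% of all genes tested. As the list was chosen on this contrast, nothing is read from these shares. The median log2 fold change of all genes tested was 0.03.

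Among the cerebellins themselves the make-up of the summed counts differed between the genotypes. This restates the levels given above, for a list chosen on this contrast, and is no separate result. The counts were not divided by gene length, so the shares below are not shares of transcript molecules. The ratio of Cbln1 to Cbln4 counts within a library does not depend on how libraries are scaled. It was 2.75, 2.80, 3.27 and 3.11 in sKO-1 to sKO-4, against 1.49 and 1.49 in WT-1 and WT-2. The WT libraries were nearly equal and all sKO libraries lay above them. Cbln1 made up 72.4% to 75.5% of the summed cerebellin counts in sKO and 58.2% to 58.4% in WT. Cbln4 held 23.1% to 26.3% in sKO and 39.04% to 39.3% in WT. Cbln2 and Cbln3 each held under 1% in sKO, and in WT Cbln2 held 0.947% to 1.48% and Cbln3 1.27% to 1.32%.

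**Figure D2:**
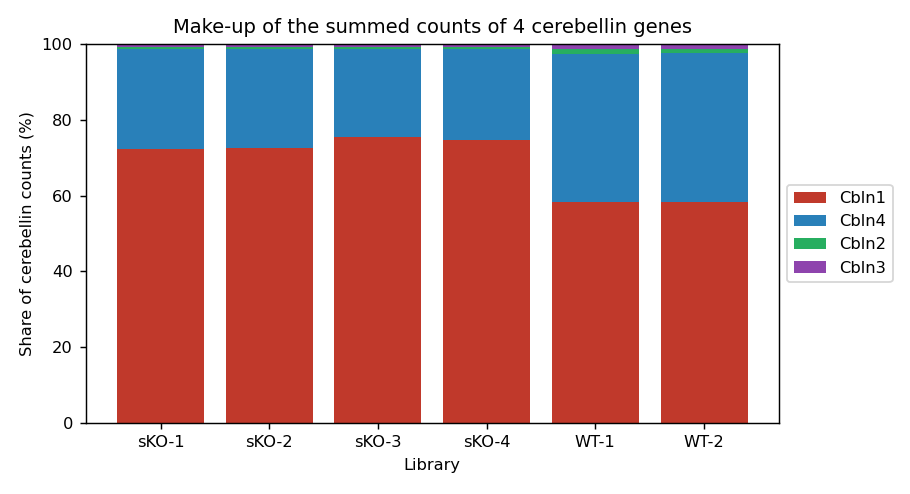
Share of the summed expected counts of Cbln1, Cbln2, Cbln3 and Cbln4 (y axis, %) in each library (x axis); each bar adds to the whole. Cbln1 holds 72.4% to 75.5% in the sKO libraries and 58.2% to 58.4% in the WT libraries.

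Levels of different genes were compared per kilobase, dividing CPM by the median length of a gene's annotated transcripts. On this scale Cbln1 was the most abundant of the 6 genes, at 175 ± 5.82 CPM per kilobase in sKO (SD, n = 4) and 63.8 ± 6.52 in WT (SD, n = 2). Cbln4 followed at 37.1 ± 4.18 CPM per kilobase in sKO and 26.9 ± 2.67 in WT. Nrxn2 came next at 2.72 ± 0.269 CPM per kilobase in sKO and 2.56 ± 0.292 in WT. Cbln3 (1.13 ± 0.118 in sKO and 0.816 ± 0.0651 in WT) and Cbln2 (0.896 ± 0.295 in sKO and 1.051 ± 0.430 in WT) were of like level, and their order differed between the genotypes by less than the spread of Cbln2. Grid1 was at 0.304 ± 0.0896 CPM per kilobase in sKO and 1.15 ± 0.953 in WT, and its annotated transcripts range so widely that the longest one gives 0.0439 in sKO and 0.166 in WT. With the longest transcript of each gene, Cbln1 remained first and Cbln4 the second, at 114 and 37.1 CPM per kilobase in sKO and at 41.5 and 26.9 in WT. On that length Cbln2 lay above Cbln3 in both genotypes, at 0.822 and 0.734 in sKO and at 0.964 and 0.529 in WT. The order of Cbln2 and Cbln3 thus depends on the length used.

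Nrxn2 and Grid1, the receptors of the group analysed here, were far less abundant than Cbln1 and Cbln4. Nrxn2 encodes a neurexin, a presynaptic adhesion protein to which cerebellins bind. It was at 8.57, 8.04, 7.16 and 9.06 CPM in sKO-1 to sKO-4, against 8.34 and 7.10 CPM in WT-1 and WT-2. The groups overlapped, and the log2 fold change was 0.09 (SE 0.18). In the GRCm38 annotation 682 exonic bases of Nrxn2 overlap Slc22a12 and 207 overlap Gm14964, both on the opposite strand. The labels do not say if the strand of a read was used in counting, so reads of these genes may be mixed.

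Grid1 encodes GluD1, a delta receptor that binds cerebellins on the receiving cell. It had 5.01, 4.1, 3 and 6 expected counts in sKO-1 to sKO-4, against 29.0 and 7.02 in WT-1 and WT-2. All sKO values lay below both WT values, but only WT-1 was clearly above the rest, and the exact 95% Poisson interval of WT-2 (2.81 to 14.4 counts) overlaps that of every sKO library, the widest-reaching being sKO-4 (2.2 to 13.1). These intervals cover counting error only. In the annotation 91 exonic bases of Grid1 overlap Gm27617 on the same strand.

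The other receptors of the system were taken from a list of 4. Neo1, which encodes neogenin, a receptor for netrins and repulsive guidance molecules, was at 651 ± 61.4 CPM in sKO (SD, n = 4) and 573 ± 121 CPM in WT (SD, n = 2; log2 fold change 0.18, SE 0.14, edgeR adjusted p = 0.699). Dcc, which encodes the netrin receptor that Cbln4 binds, was at 1.27, 4.55, 7.11 and 5.55 CPM in sKO-1 to sKO-4, against 2.96 and 3.72 CPM in WT-1 and WT-2 (log2 fold change 0.47, SE 0.58, edgeR adjusted p = 0.836). The sKO values of Dcc spanned both WT values. Of the 3 receptors of this list that were tested, 0 passed in either direction with edgeR, DESeq2 or limma-voom, and 0 had an unadjusted edgeR p under 0.05. Among all genes tested edgeR called 0.124% higher and 2.3% lower, and 13.1% had an unadjusted p under 0.05. With 3 genes, nothing is read from counts of 0 beside these shares.

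Neurexins have many other partners at the cell surface. Of 22 such ligands listed, 19 were in the table and 13 were tested. With edgeR 0 were higher and 0 lower, against 0.124% and 2.3% of all genes tested, and DESeq2 and limma-voom also called 0. An unadjusted edgeR p under 0.05 was found for 2, and for 13.1% of all genes tested. Their median log2 fold change was 0.22, against 0.03 for all genes tested, and 11 of the 13 were above 0, against 55.3% of all genes. Dag1, the matrix receptor dystroglycan, was the most abundant at 862 ± 94.7 CPM in sKO (SD, n = 4) and 777 ± 83.9 CPM in WT (SD, n = 2; log2 fold change 0.15, SE 0.13, edgeR adjusted p = 0.723). Adgrl1, the adhesion receptor latrophilin, was at 834 ± 16.8 CPM in sKO and 727 ± 19.6 CPM in WT. Its sKO libraries all lay above both WT libraries, and the log2 fold change was 0.20 (SE 0.08; adjusted p = 0.357 by edgeR). With the term for the library split 3 of the 13 were called higher, against 4.97% of all genes.

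The C1q domain that cerebellins carry is shared with complement C1q, the C1q-like proteins, the CTRP family and several matrix proteins. Of 25 such relatives 19 were tested, with 1 lower and 0 higher by edgeR, and 2 higher and 2 lower at an unadjusted p under 0.05. Among all genes 2.3% were lower by edgeR, and at an unadjusted p 4.17% were higher and 8.91% lower. DESeq2 and limma-voom also called 0 higher and 1 lower each. The median log2 fold change was 0.09. The lower gene was C1ql1, a secreted C1q-like synaptic protein that binds the receptor Adgrb3. It had 3, 3, 5 and 2 counts in sKO-1 to sKO-4, against 28 and 16 in WT-1 and WT-2. All sKO values lay below both WT values, on counts too low for a close estimate of the size (log2 fold change −2.66, SE 0.49, edgeR adjusted p = 0.0395). Without any single library its call was lost, with adjusted p from 0.068 (without sKO-3) to 0.421 (without WT-1), and over all its alternatives the adjusted p ran from 0.0102 to 0.421. The log2 fold change without 1 library stayed at −2.99 to −2.28. Germ cell markers fell in the same 4 libraries, and their part in this difference was not tested.

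Proteins that hold or process neurexins and delta receptors inside the cell, together with Adgrb3, made up a list of 18, all of which were tested. With edgeR 0 were higher and 0 lower, and 2 were higher and 2 lower at an unadjusted p under 0.05, against 4.17% and 8.91% of all genes. DESeq2 and limma-voom each called 0 higher and 1 lower. Over all genes edgeR called 0.124% higher and 2.3% lower. DESeq2 called 81 higher and 648 lower of 32550 genes, and limma-voom 18 and 446 of 17707. The median log2 fold change of the list was 0.08. Khdrbs1, an RNA-binding protein that regulates neurexin splicing, was at 288 ± 22.7 CPM in sKO (SD, n = 4) and 284 ± 33.8 CPM in WT (SD, n = 2), a log2 difference of 0.02 (SE 0.11; adjusted p = 0.972 by edgeR), turning negative in 5 alternatives and, with the shift of all genes, with Sertoli library sizes. Lin7c, a scaffold protein, was at 115 ± 24.2 CPM in sKO and 116 ± 25.6 CPM in WT (log2 fold change −0.0087, SE 0.21, edgeR adjusted p = 0.996). The 4 genes with an unadjusted p under 0.05 were chosen after their values were seen. Adgrb3, the receptor of C1ql1 named above, was at 6.27 ± 1.23 CPM in sKO and 3.81 ± 0.209 CPM in WT, and the scaffold kinase gene Cask at 68.4 ± 7.02 CPM in sKO and 52.5 ± 9.99 CPM in WT. Their log2 fold changes were 0.72 (SE 0.25, edgeR adjusted p = 0.261) and 0.38 (SE 0.14, edgeR adjusted p = 0.298), and in both the sKO libraries lay above both WT libraries. Apba2, an adaptor that binds neurexins, was at 0.321 ± 0.197 CPM in sKO and 1.92 ± 0.730 CPM in WT, and Khdrbs2, a relative of Khdrbs1, at 0.155 ± 0.109 CPM in sKO and 0.909 ± 0.330 CPM in WT. Their log2 fold changes were −2.57 (SE 0.54, edgeR adjusted p = 0.0598) and −2.53 (SE 0.72, edgeR adjusted p = 0.156), and in both the sKO libraries lay below both WT libraries.

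**Figure D3:**
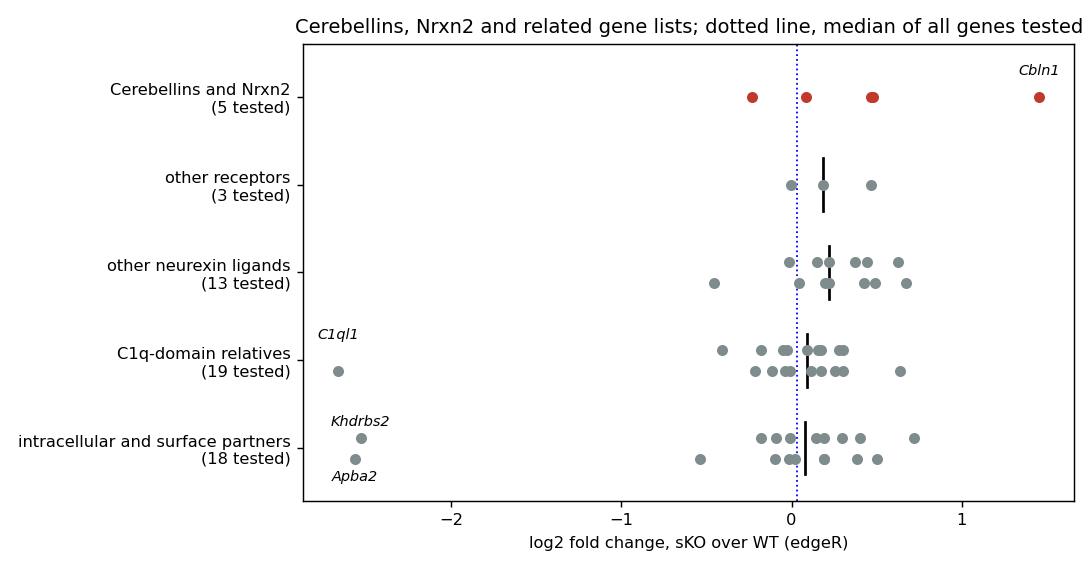
Log2 fold change of sKO over WT (x axis, edgeR) for the 5 tested genes of the group (top row) and for 4 lists of related genes; each point is a gene, the black bar a list's median and the dotted line the median of all genes tested (0.03). Cbln1 at 1.46 lies to the right of every other gene shown, and C1ql1, Khdrbs2 and Apba2 lie below −2.

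As neurexins and cerebellins are best known from nervous tissue, markers of nerve fibres, Schwann cells and chromaffin cells were read beside them. Of 12 markers 6 were tested, with 0 higher and 0 lower by edgeR, DESeq2 or limma-voom and 0 at an unadjusted edgeR p under 0.05. Among all genes tested edgeR called 0.124% higher and 2.3% lower, and 13.1% had an unadjusted p under 0.05. With 6 genes, nothing is read from counts of 0 beside these shares. The summed level of the 12 markers was 158 to 202 CPM in sKO and 162 to 172 CPM in WT. Which cells of the testis supplied the Cbln1 transcripts was not tested.

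Differences were also read on each side of the library split on the first principal component. For Cbln1 all sKO libraries lay above both WT libraries, so a positive difference on both sides follows from those values and adds no support. On the log2 CPM scale, with a prior count of 2, the difference of sKO minus WT was 1.39 among sKO-1, sKO-2 and WT-1 and 1.53 among sKO-3, sKO-4 and WT-2. For Cbln4 it was 0.50 and 0.43, for Cbln3 0.37 and 0.55, for Cbln2 −0.44 and 0.03, and for Nrxn2 −0.01 and 0.18, in the same order. Each side holds 1 WT library, so these values have no test.

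Genes whose pattern over the 6 libraries was most like that of Cbln1 were sought by the root mean square distance between log2 CPM profiles, each centred on its own mean. Of 15513 other genes with a mean of at least 1 CPM, 8 lay within 0.3 of Cbln1. The nearest with a usable symbol was Vstm2a, which encodes a secreted immunoglobulin-domain protein (distance 0.19). Vstm2a was at 5.15 ± 0.975 CPM in sKO (SD, n = 4) and 1.98 ± 0.0758 CPM in WT (SD, n = 2), with a log2 fold change of 1.38. It was followed by the lymphoid adaptor gene Sash3 (0.26), the gliomedin gene Gldn (0.28), the anoctamin gene Ano3 (0.29) and the protocadherin gene Pcdhb5 (0.30). All 5 were much less abundant than Cbln1, from 1.34 (Sash3) to 18.1 CPM (Gldn) in sKO. Vstm2a passed the edgeR threshold, but in only 5 of 17 alternatives. Sash3, Gldn, Ano3 and Pcdhb5 did not pass with edgeR. The 5 genes were picked for their likeness to Cbln1, so these calls describe a fit and test nothing. Around Cbln4, 6758 genes lay within 0.3 and 68 within 0.1. The distance is not scaled to the size of a gene's changes. Centred values of Cbln4 ran only from −0.41 to 0.29, against −1.08 to 0.53 for Cbln1. Genes that changed little therefore also lie near Cbln4, and its counts cannot be set against the 8 around Cbln1. The nearest to Cbln4 were the potassium channel gene Kcng4 (0.02), the guanylate-binding protein gene Gbp9 (0.04) and Fgf13 (0.05), a fibroblast growth factor homologue.

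**Figure D4:**
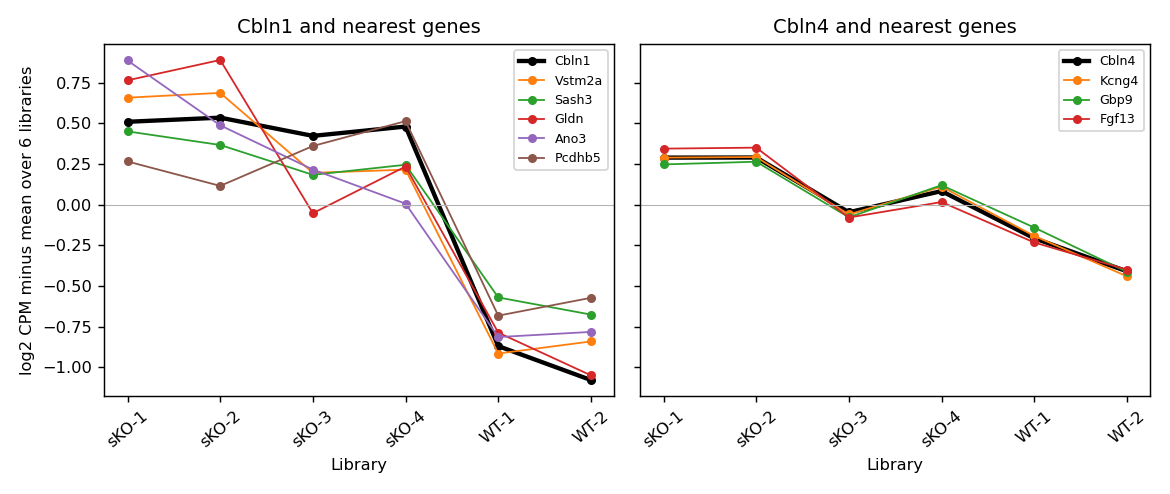
Log2 CPM minus each gene's mean over the 6 libraries (y axis) for Cbln1 with its 5 nearest genes (left) and Cbln4 with its 3 nearest (right), by library (x axis); lines join the libraries of 1 gene. Cbln1 is nearly level over the sKO libraries, while Cbln4 is highest in sKO-1 and sKO-2.

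Over 17 alternative settings the log2 fold change of Cbln1 lay between 1.29 and 1.57, which describes how its size moves with the processing. The lowest value came with library sizes set to the Sertoli cell markers, which took the median of all genes down by 0.16. Relative to that median Cbln1 was at 1.416, against 1.424 with TMM.

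**Figure D5:**
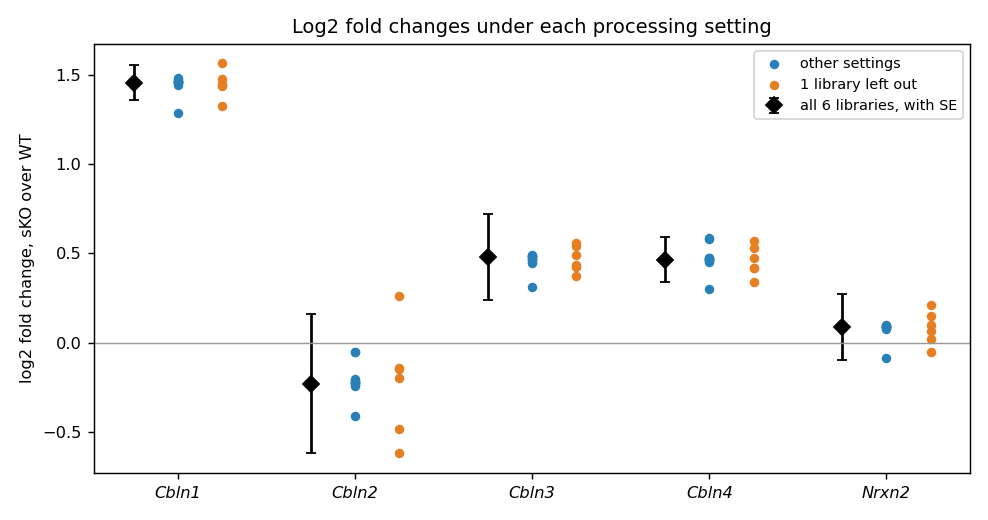
Log2 fold change of sKO over WT (y axis) for the 5 tested genes; the black diamond is the comparison of all 6 libraries with its SE, blue points are other settings and orange points leave out 1 library. Cbln1 stays between 1.29 and 1.57, whereas points of Cbln2 and Nrxn2 fall on both sides of 0.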

How the data were processed

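Per the labels, RNA with poly(A) tails was captured from whole testes on oligo dT magnetic beads. A single table of expected counts per gene for 6 libraries was deposited by the authors. Per the submitters' processing notes RSEM, STAR and fastp were run and mm39 was the build. What versions, annotation and strand setting were used is not stated there. Libraries were grouped by title; the design text gives other group sizes. Symbols came from GENCODE M21 (GRCm38), which matched 51742 identifiers (90.5%) holding 99.2% of the counts. That annotation also gave lengths, overlaps and coding sequences, and no coordinates are given since the builds differ.

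Expected counts were rounded, filtered with filterByExpr (minimum count 10), scaled by TMM and compared with edgeR 4.0.16 (quasi-likelihood test, two-sided, R 4.3.3) in 6 libraries with no covariate. Benjamini-Hochberg adjustment ran over 17707 genes with a threshold of 0.05. SE is the log2 fold change divided by the root of F. Libraries of 1 group differed beyond sampling noise (chi-square per gene 4.08 to 24.7) and none were merged. The steps were tested on simulated data.

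The genes and lists were chosen with earlier results of these data known. Named are the genes of the group, Mdm2, in each list up to 4 genes with the smallest adjusted p under 0.05 or else the 2 most abundant, and the 5 and 3 genes nearest to Cbln1 and Cbln4 with a mean of at least 1 CPM and a usable symbol. Apba2, Khdrbs2, Adgrb3 and Cask were named outside that rule. Some genes of the lists are not reported here by name. Alternatives were DESeq2 1.42.0, limma-voom (limma 3.58.1), RLE and upper-quartile factors, Sertoli library sizes, no filter, at least 1 CPM in 4 libraries, each library left out, the replicate number as a block, the library split as a term, unrounded counts and the longest transcript as gene length. The split was picked from these libraries, so p-values with its term may be too small.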

Additional observations from a re-analysis of the deposited data

How the results depend on the processing

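The values of the group below describe how sizes move over 17 alternatives, in which Cbln1 lay between 1.29 and 1.57 and Cbln3 between 0.31 and 0.56. Cbln4 passed the threshold with DESeq2 (log2 fold change 0.47) and with the library split as a term (0.46), which is no test of a gene chosen on this contrast. Cbln2 turned to 0.26 without WT-1. Nrxn2 turned to −0.056 without WT-2. Sertoli library sizes move the median of all genes by −0.16. Nrxn2 read −0.085, Dag1 −0.0066 and Khdrbs1 −0.14 there, and relative to the median of all genes they were at 0.04, 0.12 and −0.0093, against 0.05, 0.12 and −0.015 with TMM. Leaving out 1 library gave 1.33 to 1.57 for Cbln1, −0.62 to 0.26 for Cbln2, 0.37 to 0.56 for Cbln3, 0.34 to 0.57 for Cbln4 and −0.056 to 0.21 for Nrxn2. The cause of the turns without 1 library was not tested.

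The replicate number served as a block among the 4 libraries numbered 1 and 2. The correlation over genes of WT-1 minus WT-2 with sKO-1 minus sKO-2 was −0.01. It cannot show if libraries of like number were paired, since WT-1 and WT-2 lay on opposite sides of the library split and sKO-1 and sKO-2 on the same side. With the replicate block Cbln1 was at 1.48, 19 genes were higher and 268 lower over all genes, and 0 C1q-domain relatives were lower. The same 4 libraries without the block gave 9 higher, 187 lower and 0 such relatives.

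Over all genes, 22 were higher and 408 lower in sKO. DESeq2 gave 81 and 648, the library split as a term 880 and 1531, and Sertoli library sizes 11 higher. Leaving out 1 library gave 2 to 7 higher and 1 to 225 lower, with 2 and 1 without WT-1. C1q-domain relatives lower were 0 with at least 1 CPM in 4 libraries, where C1ql1 was filtered out and not tested, and 0 without any 1 library, and 2 with the split term, which also gave 1 higher. The split term gave 3 neurexin ligands higher, and among the intracellular and surface partners 1 higher and 2 lower. Of those partners 1 was lower with DESeq2, limma-voom, Sertoli library sizes or no filter. Of the named list genes that had not passed, Neo1 turned to −0.018 without WT-1 and reached 0.39 without WT-2. Dcc turned to −0.42 with the block and −0.21 in the same libraries without it, and Dag1 to −0.0007 and −0.0037. Khdrbs1 turned to −0.088 with the block and −0.091 without it, and ran from −0.099 without WT-1 to 0.12 without WT-2, with −0.0044 without sKO-3 and −0.038 without sKO-4. Lin7c turned to 0.0022 with DESeq2, 0.0007 with upper-quartile factors, 0.0016 with no filter, and ran from −0.22 without WT-1 to 0.21 without WT-2, with 0.081 without sKO-1 and 0.072 without sKO-2. Low counts limit the precision for Grid1, C1ql1, Apba2 and Khdrbs2.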
